A study of Mus musculus with 8 samples.

Results

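The genes described here are 6 that encode surfactant proteins or components of the lamellar body: *Sftpa1*, *Sftpb*, *Sftpd*, *Napsa*, *Lamp3* and *Abca3*. They were taken by symbol from the 812 genes in the deposited table, and all 6 were found. AT2 cells, the type II cells of the alveolar epithelium, came from C57BL/6 mice of 2 genotypes. The WT group, labelled wildtype, was RhoA fl/fl, and the RhoA-deficient group, labelled RhoA_KO, was Sftpc-cre;RhoA fl/fl, so that both groups carried the floxed allele and Cre was made under the promoter of *Sftpc*, itself a surfactant gene. The labels list 4 samples of each genotype, all single-passage primary cells treated in culture for 16 hours with 50 μg/mL of cockroach extract (CRE), whereas the paper's text on the RNA-seq names asthma model mice and points to a scheme that it elsewhere uses for isolated cells given CRE. Neither gives the age of the mice or says that each sample was a separate animal. Cells were enriched by depleting other lung cells with antibodies, among them one to CD45, and by panning on IgG.

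The table holds 1 pooled FPKM value (fragments per kilobase of transcript, relative to the depth of the library) for each genotype. Each pooled value is an average given by the authors. FPKM corrects for transcript length, so levels can be set side by side between genes, but the spread between samples and the depth are unknown. No test across samples could be made, and each difference below is a description of 2 pooled values. All 812 genes carry the authors' mark of significance, although the paper's text counts fewer differentially expressed genes. A gene without a difference by their test would not be listed, so the presence of the 6 genes in the table is no evidence about them that is independent of that test. Neither *Sftpc* nor *Rhoa* has a row in this table of 812 genes, so neither the defining AT2 gene nor the deletion could be checked in these values. The paper reports the loss of RhoA protein in isolated AT2 cells by Western blot. The most abundant transcript of the table in both groups was *Scgb1a1*, the secretoglobin of club cells, at 27285 FPKM in WT and 9204 FPKM in RhoA-deficient cells.

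Pulmonary surfactant is a film of phospholipid and protein that lowers surface tension at the air-liquid interface of the alveolus. AT2 cells assemble it in lamellar bodies, which are lysosome-related organelles, and release it by exocytosis. The hydrophobic proteins SP-B and SP-C organize the lipid film, while SP-A and SP-D are collectins, soluble lectins that bind microbes and allergens. *Sftpa1*, *Sftpb* and *Sftpd* are also transcribed in club cells of the airway, and *Lamp3* is also a gene of mature dendritic cells.

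The sequences before the start sites are shown because the 6 genes differed in the same direction. They come from RefSeq on GRCm38.p6 for *Sftpa1*, *Sftpb*, *Lamp3* and *Abca3*, which were 4 of the 6 genes matched. *Sftpd* and *Napsa* were not matched. Each is written 5′ to 3′ on the strand of its gene and ends before the first base of the gene in both RefSeq and GENCODE M21. Capitals mark the matches to the motifs named below. The region of *Sftpa1* is chr14:41131538-41131781 on the plus strand, that of *Sftpb* is chr6:72304360-72304609 on the plus strand, that of *Lamp3* is chr16:19706376-19706615 on the minus strand, and that of *Abca3* is chr17:24351773-24351949 on the plus strand.
Sftpa1: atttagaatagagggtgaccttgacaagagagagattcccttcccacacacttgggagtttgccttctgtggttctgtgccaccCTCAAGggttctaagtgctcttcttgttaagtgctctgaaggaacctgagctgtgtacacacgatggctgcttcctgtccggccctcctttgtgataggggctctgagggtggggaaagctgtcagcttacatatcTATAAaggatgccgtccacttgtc
Sftpb: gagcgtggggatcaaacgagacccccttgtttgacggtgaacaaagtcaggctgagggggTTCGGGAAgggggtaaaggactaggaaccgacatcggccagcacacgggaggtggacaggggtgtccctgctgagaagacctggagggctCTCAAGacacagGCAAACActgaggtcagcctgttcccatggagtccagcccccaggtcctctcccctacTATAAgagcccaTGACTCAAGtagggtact
Lamp3: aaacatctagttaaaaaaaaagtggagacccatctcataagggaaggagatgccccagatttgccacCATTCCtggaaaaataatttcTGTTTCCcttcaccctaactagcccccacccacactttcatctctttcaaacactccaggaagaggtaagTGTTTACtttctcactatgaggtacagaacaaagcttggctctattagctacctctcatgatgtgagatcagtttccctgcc
Abca3: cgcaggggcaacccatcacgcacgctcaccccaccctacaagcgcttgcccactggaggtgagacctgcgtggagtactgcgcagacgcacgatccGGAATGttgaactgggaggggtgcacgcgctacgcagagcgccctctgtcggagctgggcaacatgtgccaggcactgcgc

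Motifs were searched on both strands in the 250 bases before the RefSeq start. *Sftpa1* and *Sftpb* each held a TATA box, searched as TATAA, from base -30 to -26, and 22.8% of all 32851 promoter windows in the table of promoters held these letters. The letters CTCAAG of NKX2-1, the homeodomain factor of lung epithelium, were found in 13.3% of windows. They lay at -166 to -161 in *Sftpa1* and at -100 to -95 and -15 to -10 in *Sftpb*. FOXA letters (TGTTTNC) were present in 17.8% of windows, once in *Sftpb* at -88 to -82 on the opposite strand and at -162 to -156 and -92 to -86 in *Lamp3*. *Sftpb* also held the C/EBP letters TTNNGNAA at -190 to -183, found in 36.8% of windows, and the AP-1 letters TGANTCA at -18 to -12, found in 6.75%. The AP-1 match overlaps the NKX2-1 match nearest the start. The letters GGAATG of TEAD, found in 12.6% of windows, lay at -183 to -178 on the opposite strand in *Lamp3* and at -154 to -149 in *Abca3*. A CArG box of SRF was found in 1.47% of all windows and in 0 of the 4 shown. None of the motifs was held by all 4 genes.

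**Figure D1:**
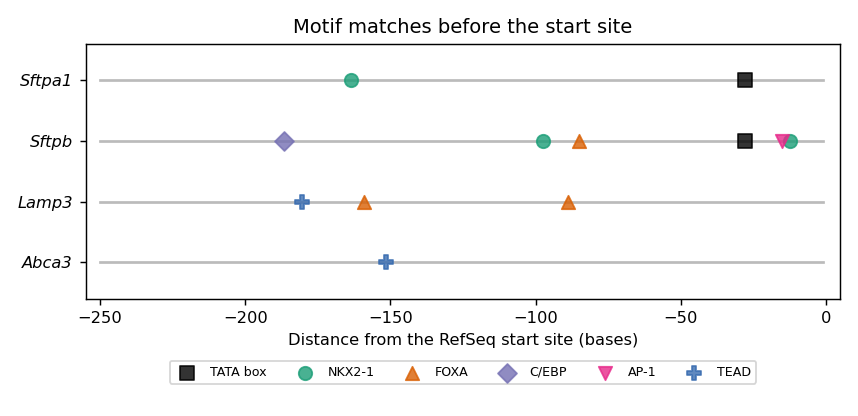
Motif matches in the bases before the RefSeq start site of 4 genes, on an axis of distance from that site in bases. Each symbol is a match on either strand. The 2 genes with a TATA box, *Sftpa1* and *Sftpb*, also hold NKX2-1 letters, and *Lamp3* and *Abca3* hold neither.

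The level of each of the 6 genes was higher in RhoA-deficient than in WT AT2 cells. As a description, 6 of 6 were at least 2-fold higher on the log2(FPKM + 1) scale, and the median difference was 1.10. With both groups scaled to the same sum without *Scgb1a1*, 1 of 6 was, beside 6.03% of the 779 genes, and the median was 0.46, beside 0.04. With centring on the median of the 779 genes, 1 of 6 was, beside 5.01%, and the median was 0.44. Among the 779 genes whose FPKM averaged at least 1 over both groups, 55.8% were higher and 24.6% were at least 2-fold higher. The median difference of the 779 was 0.66. The 435 higher genes alone had a median difference of 0.95 and a smallest of 0.55, and 192 of them were at least 2-fold higher. Bulk RNA gives no count of cells, so fewer cells of a type and less RNA per cell cannot be told apart.

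The collectin genes were the first and the third of the 6 by level. *Sftpa1* (ENSMUSG00000021789.14), which encodes SP-A, was at 864.3 FPKM in WT and at 1801.9 FPKM in RhoA-deficient cells. Its difference was 1.06 in log2(FPKM + 1), a ratio of 2.08. *Sftpd* (ENSMUSG00000021795.10), which encodes SP-D, was at 286.0 FPKM in WT and at 585.2 FPKM in RhoA-deficient cells. The difference for *Sftpd* was 1.03, a ratio of 2.05, which was the smallest of the 6. Both genes lie on chromosome 14 of GRCm38, *Sftpa1* from 41131782 to 41136452 on the plus strand and *Sftpd* from 41172214 to 41185149 on the minus strand, with 35.8 kb between them. Of 7 collectin genes looked up, which included *Mbl1*, *Mbl2* and the *Colec* genes, these 2 were in the table. The ratio of the *Sftpa1* level to the *Sftpd* level was 3.02 in WT and 3.08 in RhoA-deficient cells.

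*Sftpb* (ENSMUSG00000056370.15) encodes SP-B, the surfactant protein without which lamellar bodies do not form properly. Its level was 600.0 FPKM in WT and 1267.1 FPKM in RhoA-deficient cells. The difference was 1.08 in log2(FPKM + 1), a ratio of 2.11. *Napsa* (ENSMUSG00000002204.9) encodes napsin A, an aspartic protease that takes part in processing the SP-B precursor. *Napsa* was at 132.9 FPKM in WT and at 288.7 FPKM in RhoA-deficient cells, a difference of 1.11 and a ratio of 2.17. The gene for the protein and the gene for its protease thus had ratios of 2.11 and 2.17. *Sftpb* lies on chromosome 6 from 72304610 to 72314371 and *Napsa* on chromosome 7 from 44572380 to 44586862, both on the plus strand.

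The genes of the lamellar body membrane had the lowest levels in WT and the widest range of differences. *Abca3* (ENSMUSG00000024130.16) encodes the transporter that moves phospholipid into the lamellar body. It was at 23.1 FPKM in WT and at 53.9 FPKM in RhoA-deficient cells, a difference of 1.19 and a ratio of 2.34. *Lamp3* (ENSMUSG00000041247.8) encodes a lysosome-associated membrane glycoprotein of the lamellar body. *Lamp3* was at 27.4 FPKM in WT and at 113.4 FPKM in RhoA-deficient cells, a difference of 2.01 and a ratio of 4.13. *Lamp3* therefore stood 1.19-fold above *Abca3* in WT and 2.10-fold above it in RhoA-deficient cells. *Abca3* lies on chromosome 17 from 24351950 to 24410201 on the plus strand, and *Lamp3* on chromosome 16 from 19653378 to 19706375 on the minus strand.

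**Figure D2:**
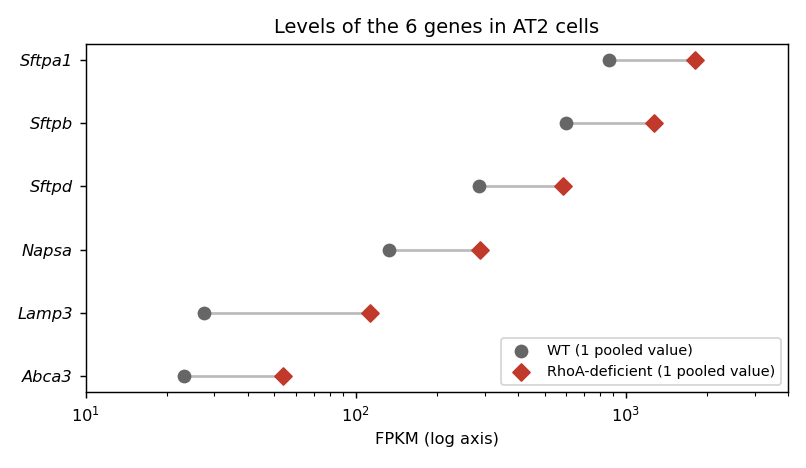
FPKM of the 6 genes on a log axis, with 1 pooled value for WT (circle) and 1 for RhoA-deficient AT2 cells (diamond). No error is drawn, since each value is an average given without a spread. The lines of 5 genes have nearly the same length, with ratios from 2.05 to 2.34, and that of *Lamp3* is longer, with a ratio of 4.13.

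The order of the 6 genes by level was *Sftpa1*, *Sftpb*, *Sftpd*, *Napsa*, *Lamp3* and *Abca3* in both genotypes. With 1 pooled value per genotype, neighbours in this order could not be set against a spread, which matters most for *Lamp3* and *Abca3* in WT. *Sftpa1* was 37.4-fold above *Abca3* in WT and 33.4-fold above it in RhoA-deficient cells. Among all 812 genes, *Sftpa1* was rank 4 by level in both groups, and the rank of *Lamp3* was 237 in WT and 95 in RhoA-deficient cells. The sum of the 6 levels was 1934 FPKM in WT and 4110 FPKM in RhoA-deficient cells, a ratio of 2.13.

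The make-up of that sum differed little between the genotypes. *Sftpa1* contributed 44.7% in WT and 43.8% in RhoA-deficient cells, *Sftpb* 31.0% and 30.8%, *Sftpd* 14.8% and 14.2%, and *Napsa* 6.87% and 7.02%. The share of *Abca3* was 1.19% and 1.31%. The share of *Lamp3* was 1.42% in WT and 2.76% in RhoA-deficient cells. The differences of the 5 genes other than *Lamp3* lay within 0.16 on the log2(FPKM + 1) scale, and with *Lamp3* the 6 spanned 0.98. In the table, 55 other genes of these 779 had a difference between the lowest and the highest of those 5, so such a value is not particular to these genes.

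**Figure D3:**
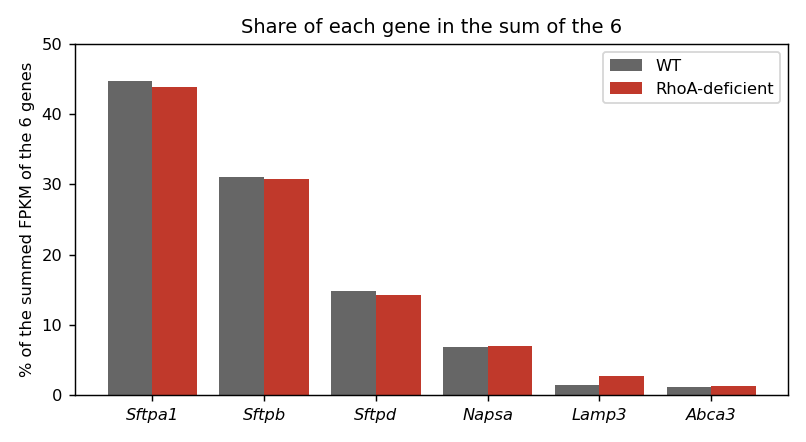
Share of each gene in the summed FPKM of the 6 genes, in percent, with 1 bar for the pooled WT value and 1 for the pooled RhoA-deficient value. *Lamp3* goes from 1.42% to 2.76%, while the 3 *Sftp* genes keep shares within 1 percentage point.

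Ranked by the signed difference from the most positive down, *Lamp3* was rank 20 of the 779 genes, *Abca3* was rank 127 and the other 4 were between rank 153 and rank 186. The gene closest to each of the 6 was sought by the distance in log2(FPKM + 1) over the 2 pooled values, which is a coarse measure of likeness. The closest match was *Slpi*, a secreted protease inhibitor, to *Sftpd*, at a distance of 0.03, with 283 FPKM in WT and 573 FPKM in RhoA-deficient cells. *Fos*, an early response gene, was closest to *Abca3* at 0.11, *Mt1*, a metallothionein, to *Sftpb* at 0.17, *Ifrd1* to *Sftpa1* at 0.22 and *Slc39a4*, a zinc transporter, to *Napsa* at 0.22. *Lamp3* had no neighbour as close, and its nearest gene was *Slc11a2*, an iron transporter, at 0.58.

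**Figure D4:**
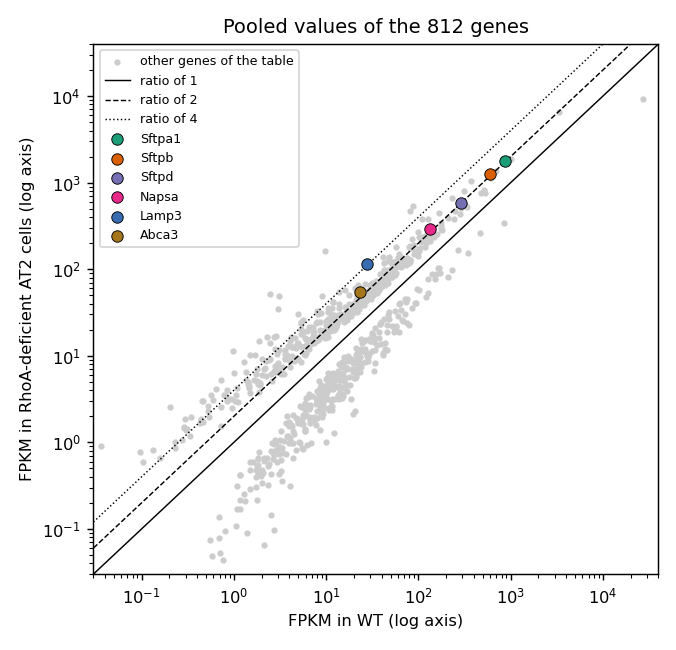
Pooled FPKM of the 812 genes in WT (x, log axis) and RhoA-deficient AT2 cells (y, log axis), with lines at ratios of 1, 2 and 4 and the 6 genes in color. Of these, 5 lie along the line at a ratio of 2 and *Lamp3* lies at the line of 4, while no gene lies on the line of 1, and the table holds only genes with the authors' mark.

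Reads of overlapping genes could enter the values of *Napsa* and *Abca3*, which was not tested. The exons of *Napsa* share 18.9% of their bases with *Gm15396*, an antisense gene, and those of *Abca3* share 9.75% with *D330041H03Rik* on the opposite strand. The locus that the table gives for *Napsa* runs 3762 bases past the end of the gene in GENCODE M21, and that for *Abca3* 4341 bases past it. The library kit kept strand, but whether strand entered the estimates is not given in the sources used here. For *Sftpa1*, *Sftpb*, *Sftpd* and *Lamp3*, the locus equals the span of the gene and holds 0 other annotated genes.

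Other genes of surfactant handling were looked up by fixed lists. Of 38 genes of surfactant protein processing, lamellar body formation and secretion, 5 were in the table. All 5 were higher in the deposited values, beside 55.8% of all genes. The 5 had a median difference of 0.96, beside 0.95 over the higher genes alone. However, *Vamp8* and *Anxa7* were lower, at -0.03 and -0.08, once both groups were scaled to the same sum without *Scgb1a1*. Both were also lower when centred on the median of the genes. *Slc34a2*, the phosphate transporter that takes up phosphate released from surfactant lipid, was at 3.00 FPKM in WT and at 34.8 FPKM in RhoA-deficient cells, a difference of 3.16. *Adgrf5*, a receptor that restrains the surfactant pool, was at 78.5 and 181 FPKM, a difference of 1.20. *Rab27a*, a GTPase of regulated secretion, was at 4.03 and 8.76 FPKM, a difference of 0.96. The differences of *Vamp8*, a vesicle SNARE, and *Anxa7*, an annexin of lamellar body fusion, were 0.61 and 0.55.

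Phospholipid is the bulk of surfactant, and 13 of 40 listed genes of its synthesis and remodelling were in the table. Of these, 11 were higher and 2 lower, also under both scalings, beside 55.8% of all genes higher. The median difference of the 13 was 0.93, beside 0.66 over all genes and 0.95 over the higher genes alone. *Scd1* and *Scd2* encode fatty acid desaturases. *Scd1* was at 108 FPKM in WT and at 383 FPKM in RhoA-deficient cells, a difference of 1.81, and the difference of *Scd2* was 1.26. *Lpcat1*, the acyltransferase that makes the disaturated phosphatidylcholine of surfactant, was at 49.3 and 94.9 FPKM, a difference of 0.93. *Chka*, a choline kinase, was at 109 and 234 FPKM, a difference of 1.10. The differences of *Sftpa1* and *Sftpb*, for comparison, were 1.06 and 1.08.

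*Acoxl* had the largest difference of this list, 2.16, from 1.5 FPKM in WT to 10.2 FPKM in RhoA-deficient cells. *Dgat2*, which makes triglyceride, differed by 1.5, and the phosphatidate phosphatases *Lpin1* and *Lpin2* by 1.19 and 0.76. Fatty acid synthase, *Fasn*, differed by 0.71 and the acyl-CoA synthetase *Acsl4* by 0.67. The difference of *Insig1*, a regulator of sterol synthesis, was 0.90. *Pla2g4a*, a cytosolic phospholipase, and *Elovl6*, a fatty acid elongase, were lower, at -0.56 and -0.80.

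Of 24 listed transcription factors tied to surfactant genes, 6 were in the table, 5 higher and 1 lower, beside 55.8% of all genes higher. Their median difference was 0.80, against 0.66 over all genes and 0.95 over the higher genes alone. Centring on the median of all genes left 4 higher, with *Jun* at the median itself. *Cebpa*, a factor of AT2 maturation, was at 33.5 FPKM in WT and at 65.5 FPKM in RhoA-deficient cells, a difference of 0.95. *Etv5*, which maintains AT2 identity, was at 2.45 and 9.14 FPKM, a difference of 1.56. *Klf5* and *Jun* each differed by 0.66 and *Fos* by 1.33. *Hopx*, a gene of AT1 cells, was lower at -0.83. *Nkx2-1*, *Foxa1* and *Foxa2*, whose letters were searched above, were not in the table and were not analysed here.

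Among markers of AT2 cells, *Lamp3* was near the top and the other 5 genes toward the bottom. Of 23 other AT2 markers listed, 19 were in the table and all 19 were higher, also under both scalings and beside 55.8% of all genes. This list was chosen with earlier results of these data known, so the count is only a description. It holds *Slc34a2*, which the paper names among its most upregulated genes. The 19 had a median difference of 1.49, with a range of 0.93 to 3.92, beside a median of 0.95 over the higher genes alone. Among these 19, *Scd1*, *Lpcat1*, *Slc34a2*, *Rab27a* and *Etv5* were also counted in the surfactant lists above, so the lists are not separate. *Sftpa1*, *Sftpb*, *Sftpd* and *Napsa* each had a smaller difference than 15 of these 19, and *Abca3* a smaller one than 13. *Lamp3* had a larger difference than 16 of them. The most abundant were *Lyz2*, a lysozyme, at 3358 FPKM in WT and 6561 FPKM in RhoA-deficient cells, a difference of 0.97, and *Cd74*, the invariant chain, at 375 and 1047 FPKM, a difference of 1.48. Both are also transcribed in macrophages. The summed level of the 19 was 4929 FPKM in WT and 11183 FPKM in RhoA-deficient cells, beside 1934 and 4110 FPKM for the 6 genes.

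**Figure D5:**
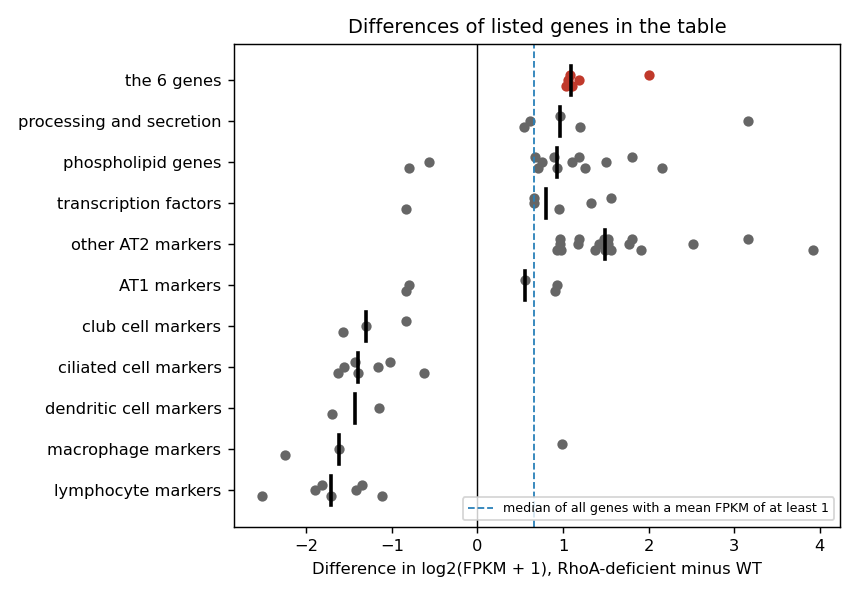
Difference in log2(FPKM + 1), RhoA-deficient minus WT, for the genes of each list that are in the table; each point is a gene, black bars are medians and the dashed line is the median of the 779 genes, 0.66. The 6 genes lie from 1.03 to 2.01 and the club, ciliated, dendritic cell and lymphocyte markers lie below 0.

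Markers of other cells differed between the genotypes beside the 6 genes. Of the 779 genes, 44.2% were lower in RhoA-deficient cells. Of 10 club cell markers, 3 were in the table and all 3 were lower, with summed levels of 27304 FPKM in WT and 9213 FPKM in RhoA-deficient cells, nearly all of it *Scgb1a1*, and *Gabrp* differed by -0.83. Of 12 ciliated cell markers, 7 were in the table and all 7 were lower, with sums of 138 and 54.6 FPKM, and *Tppp3* and *Foxj1* differed by -1.02 and -1.43. Of 12 dendritic cell markers, 2 were in the table, *Ccr7* at -1.70 and *Cd83* at -1.15, with sums of 25.8 and 7.50 FPKM, so they were lower where *Lamp3* was higher. Of 16 macrophage markers, 3 were in the table, 1 higher and 2 lower, with sums of 100 and 139 FPKM, and *Cd14* and *Gpnmb* differed by 0.99 and -2.25. Of 12 AT1 markers, 5 were in the table, 3 higher and 2 lower, with sums of 796 and 1131 FPKM. *Cldn18* and *Ager* differed by 0.93 and 0.91, and the 2 lower genes, *Hopx* and *Pdpn*, by -0.83 and -0.80. *Clic5* turned from 0.56 to -0.07 under the same sum without *Scgb1a1*, and likewise with centring. Of 14 leukocyte and lymphocyte markers, a list added after the values were seen, 7 were in the table and all 7 were lower, also under both scalings, with sums of 157 and 42.7 FPKM, and *Trac* and *Trbc2*, which encode constant regions of the T cell receptor, differed by -1.90 and -1.82. *Ptprc*, which encodes the CD45 used for depletion, was at 21.5 FPKM in WT and at 7.41 FPKM in RhoA-deficient cells. No listed marker in the table was at 0 in either group. The part of these cells in the levels of the 6 genes was not tested.

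*Scgb1a1* alone made up 45.0% of the summed FPKM of the 812 genes in WT and 15.1% in RhoA-deficient cells, which is a share of a sum of length-corrected values and not of the fragments sequenced. The sum of all 812 was 60658 FPKM in WT and 61147 FPKM in RhoA-deficient cells. Without *Scgb1a1* it was 33372 and 51943 FPKM, a factor of 1.56 between the groups. When this factor was removed, the difference of *Lamp3* was 1.38, and those of the other genes were 0.57 for *Abca3*, 0.48 for *Napsa*, 0.44 for *Sftpb*, 0.42 for *Sftpa1* and 0.39 for *Sftpd*. The 6 genes were still higher, beside 52.6% of the 779 genes, but 1 of 6, *Lamp3*, was at least 2-fold higher, beside 6.03% of them. The sum covers genes that carry the authors' mark and is not the size of a library, so this scaling is another way to express the values and not a correction of them.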

How the data were processed

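RNA from 4 WT and 4 RhoA-deficient AT2 cell samples was made into stranded mRNA libraries. The authors aligned reads to GRCm38 with STAR 2.7.2b and compared genotypes with Cufflinks; the submitters' processing notes name mm9 as the build, but the start and end of the loci match GRCm38. The deposited FPKM values are averages by the authors, 1 per genotype. The deposited table also holds the authors' fold changes, test statistics, p-values and q-values, of which none was used.

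Computed here were differences in log2(FPKM + 1), RhoA-deficient minus WT, which understate changes of low genes. Counts over the table used the 779 genes whose FPKM averaged at least 1, and listed genes were counted without that filter. A difference of at least 1, that is 2-fold, was counted as at least 2-fold higher. No test was run, and depth per sample is unknown, so no interval is given. The members, gene lists and motifs were chosen with earlier results of these data known, and the motifs after the values were seen. The 6 genes were named in full, with all genes of the surfactant lists in the table, the 2 most abundant markers of each cell list and the gene closest to each member. A further listed gene is not reported here. *Clic5*, *Pdpn*, *Hopx* as an AT1 marker, *Ptprc* and the leukocyte and lymphocyte list were chosen after their values were seen. Promoter sequences came from RefSeq on GRCm38.p6 and gene spans from GENCODE M21. Differences and the motif search were tested on simulated data. Tables were handled in pandas 2.3.3 with NumPy 2.4.6 under Python 3.11.15, and plots drawn with Matplotlib 3.10.9. The alternatives were 3 pseudocounts, 2 filters, 3 scalings and a lower fold.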

Additional observations from a re-analysis of the deposited data

How the results depend on the processing

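No paired analysis was possible because the deposited values are averaged to 1 per genotype, and for the same reason no sample could be left out in turn. A difference was taken as moved at a change of 0.1 or more in log2 and a count at a factor over 1.5, since no spread is known. No direction of the 6 genes reversed under the 8 alternatives that bear on their differences. A pseudocount of 0.1, 0.01 or none, either filter and the same sum over all 812 genes left each of the 6 within 0.1 of its value.

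Scaling to the same sum without *Scgb1a1* gave 0.42 for *Sftpa1*, 0.44 for *Sftpb*, 0.39 for *Sftpd*, 0.48 for *Napsa*, 1.38 for *Lamp3* and 0.57 for *Abca3*, a median of 0.46, 1 gene at least 2-fold higher and 6.03% of all genes at least 2-fold higher. Centring on the median of all genes gave 0.40, 0.42, 0.37, 0.46, 1.35 and 0.53, a median of 0.44, 1 gene and 5.01%. The first of these scalings moved the median of all genes from 0.66 to 0.04. Both by construction lower each difference, and both gave 3 higher and 2 lower genes of processing and secretion against 5 and 0. A fold of at least 1.5 was passed by 54.3% of all genes. A mean FPKM of at least 5 left 1 lower phospholipid gene against 2, 4 lower ciliated cell markers against 7 and 1 lower dendritic cell marker against 2, because fewer genes were kept.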
